A study of Mus musculus with 2 samples.

Results

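The transcription factors that specify the B cell lineage and commit cells to it were examined in sorted bone marrow cells: Pax5, Ebf1, Tcf3, Foxo1, Ikzf1, Ikzf3, Bach2, Pou2af1, Lef1 and Bcl11a. They were chosen by name, with earlier results of these data known. They were read through probe sets that the platform annotation assigns to exactly 1 gene. All 10 were found, with 1 probe set each, among 19935 measured genes. The study concerns osteoclast precursors. Marrow was taken from outbred ddY mice aged 6 weeks, and its mononuclear cells were separated on a density gradient and sorted on RANK, the receptor of the osteoclast differentiation factor RANKL, and c-Fms, the receptor of M-CSF. The groups were RANKhigh c-Fmslow cells (RANKhigh cells below) and RANKlow c-Fmshigh cells (c-Fmshigh cells). No treatment or engineered allele is named for either group, and the number of mice behind an array is not given in the sources used here. Amplified, biotin-labelled cDNA of each population was hybridised to 1 oligonucleotide array, so no difference has a replicate check and none has a p-value. Of the sort markers, the c-Fms gene Csf1r followed its label, with intensities of 164 in RANKhigh cells and 821 in c-Fmshigh cells. The RANK gene Tnfrsf11a was nearly flat at 104 and 119 (1.15-fold) and did not follow its label. Both values lay little above the background guide defined below (83.7 in RANKhigh cells and 81.8 in c-Fmshigh cells).

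B cell development depends on a small circuit of these factors. Ikaros (Ikzf1) and the E2A proteins (Tcf3) act from the earliest lymphoid progenitors, Ebf1 and Foxo1 specify the B cell programme, and Pax5 commits cells to it by activating B cell genes and repressing those of other lineages. Marrow B cell precursors that lack Pax5 can be turned into macrophages, osteoclasts and other cells under suitable conditions. Bone marrow is the site where B cells are made in the adult mouse.

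Promoter sequences are shown for the member with the largest difference between the arrays, Pax5, and for Foxo1, the only one of the 9 members with a RefSeq window in which an Ebf1 motif was found. They come from RefSeq (GRCm38.p6) and hold the 250 bases before the start of the gene, 5′ to 3′ on its strand. The Pax5 stretch is chr4:44710695-44710944 on the minus strand, and the Foxo1 stretch is chr3:52268087-52268336 on the plus strand. Capitals mark an E box (CANNTG, the core that E proteins bind) in both and, in Foxo1, also the Ebf1 palindrome, TCCC and GGGA held 2 bases apart.
Pax5: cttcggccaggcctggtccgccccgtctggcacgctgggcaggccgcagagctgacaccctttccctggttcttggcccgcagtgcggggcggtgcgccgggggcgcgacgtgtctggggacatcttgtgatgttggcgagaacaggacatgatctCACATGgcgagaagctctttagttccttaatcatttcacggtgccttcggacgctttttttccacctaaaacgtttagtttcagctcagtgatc
Foxo1: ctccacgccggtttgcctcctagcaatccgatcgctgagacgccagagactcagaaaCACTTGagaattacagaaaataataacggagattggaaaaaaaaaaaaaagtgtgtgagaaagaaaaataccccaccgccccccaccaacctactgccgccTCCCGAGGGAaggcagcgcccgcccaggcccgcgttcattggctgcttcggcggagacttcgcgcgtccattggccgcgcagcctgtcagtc

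RefSeq windows were found for 9 of the 10 members, 14 windows in all. The exception was Ikzf3. Motifs were searched on both strands of the 250 upstream bases. The Ebf1 palindrome was present in 0.78% of 32817 windows of all genes and, among the members, in Foxo1, with its first base 92 bases before the start. An E box was present in windows of 7 members and in 10 of the 14 windows, against 66.2% of all windows, a share near the background. The 10 count 1 site of Lef1 in a pair of overlapping windows. In Pax5 it began 94 bases before the start. The Ikaros core TGGGAA was present in Bcl11a and in a window of Ebf1 (21.6% of all windows), and the BCL11A motif TTGACCA in a window of Lef1 (2.13%). The E2A form of the E box, CAGGTG, which is one of the sequences counted under CANNTG (17.2%), the FOXO motif TGTTTAC (3.16%), the BACH motif TGAGTCA (4.46%), the octamer ATGCAAAT (1.6%) and the LEF core CTTTGAA (4.46%) were in 0 of the 14 windows. A match is a description of these letters and not a binding site.

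All 10 factors had the higher intensity in RANKhigh cells, 7 of them by 2-fold or more, and 0 were 2-fold or more higher in c-Fmshigh cells. The median log2 difference, RANKhigh minus c-Fmshigh, was 1.38. Counts by size were made over genes whose higher intensity reached 93.6, the median over the pooled values. All 10 members passed this level filter. Of the 11089 genes that passed it, 4.34% were at least 2-fold higher in RANKhigh cells and 4.26% in c-Fmshigh cells, and the median difference was -0.01. Of the 6228 genes whose mean level lay within the members' range, 5.67% and 5.36% were. Without the filter the shares were 2.44% and 2.38% of all 19935 genes, and among the 12105 genes above background, as defined below, 4.01% and 3.92%. At a threshold of 1.5-fold 9 factors were higher in RANKhigh cells and 0 lower (10.5% and 12.4% of genes above the filter), and at 3-fold 4 were higher and 0 lower (1.53% and 1.11%). In such bulk RNA, fewer cells of a type and less RNA per cell cannot be told apart.

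**Figure D1:**
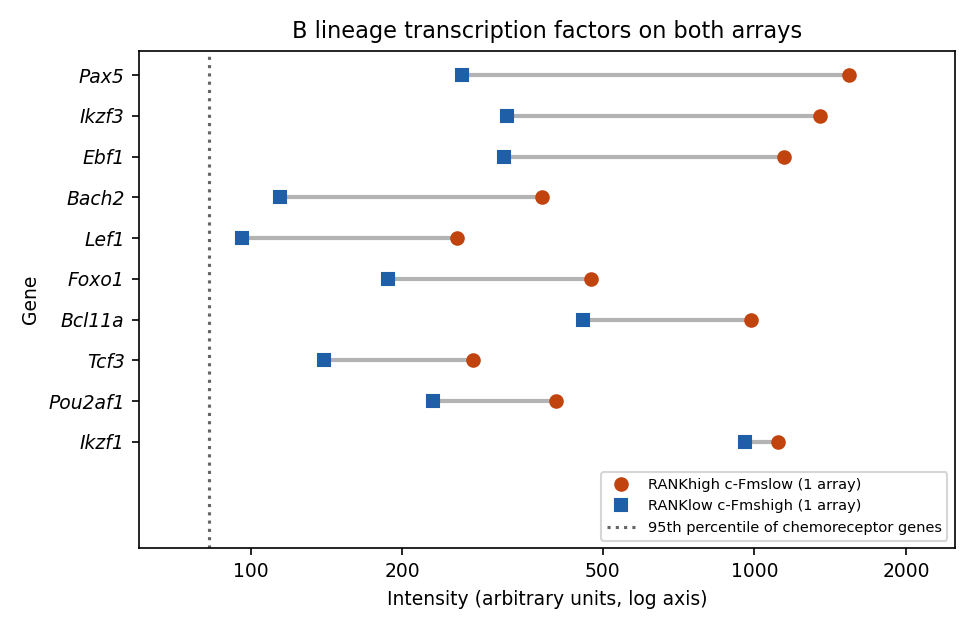
Intensity (log axis, arbitrary units) of each B lineage factor on the RANKhigh c-Fmslow array (circles) and the RANKlow c-Fmshigh array (squares), 1 array each, so there are no error bars. Every circle lies to the right of its square, with the widest gap for Pax5 (1544 against 262) and the narrowest for Ikzf1 (1116 against 960.1), and all values lie right of the dotted line at 82.6, the 95th percentile of chemoreceptor genes.

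The commitment factor Pax5 had the largest difference of the 10. Among the specification factors the order was Ebf1, Foxo1, Tcf3. Pax5 stood at an intensity of 1544 in RANKhigh cells against 262 in c-Fmshigh cells (5.89-fold, log2 difference 2.56). It ranked 22 from the top among the 11089 genes. Ebf1, the pioneer factor that acts upstream of Pax5, stood at 1144 against 319 (3.59-fold, log2 difference 1.84, rank 116). Foxo1, which activates the recombinase and interleukin-7 receptor genes and is restrained by PI3 kinase signalling, stood at 473 against 187 (2.53-fold, 1.34). Tcf3, which encodes the E2A proteins E12 and E47, lay just under the threshold at 276 against 140 (1.97-fold, 0.98).

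The Ikaros family members stood far apart from each other. Ikzf3, which encodes Aiolos, a zinc finger factor of later B cell stages, stood at 1350 against 322 (4.19-fold, log2 difference 2.07, rank 72). Ikzf1, which encodes Ikaros and is used by many blood lineages, stood at 1116 against 960.1 (1.16-fold, 0.22). It had the smallest difference of the 10, and 27.5% of the 11089 genes had a larger one.

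The remaining members are factors of later or wider use. Bach2, a repressor that holds off plasma cell differentiation, stood at 378 against 114 (3.31-fold, log2 difference 1.73). Lef1, a Wnt pathway factor of pro-B cells and T cells, stood at 257 against 95.8 (2.68-fold, 1.42). Its lower value was the one nearest to background, for which 1193 olfactory and vomeronasal receptor genes served as a guide, with 95th percentiles of 83.7 in RANKhigh cells and 81.8 in c-Fmshigh cells. Bcl11a, a zinc finger factor needed for B cell formation and also expressed in plasmacytoid dendritic cells and early progenitors, stood at 983 against 457 (2.15-fold, 1.11). Pou2af1, the coactivator that joins Oct factors at the octamer of immunoglobulin promoters, stood at 403 against 230.1 (1.75-fold, 0.81). Bcl11a and Tcf3 lay on either side of the 2-fold threshold, 0.13 apart.

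The order of the differences is not firm between neighbours. With no replicates, the only spread at hand was that between probe sets of 1 gene on these arrays. That spread comes from the same RNA samples, so it leaves out variation between mice, sorts and arrays. Over 558 genes with exactly 2 probe sets, the gap between their log2 differences had a median of 0.19 and a 90th percentile of 0.67. All 9 steps between neighbouring members were smaller than that 90th percentile, and 4 were smaller than the median. The largest steps were those from Pou2af1 to Ikzf1 (0.59) and from Pax5 to Ikzf3 (0.49).

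**Figure D2:**
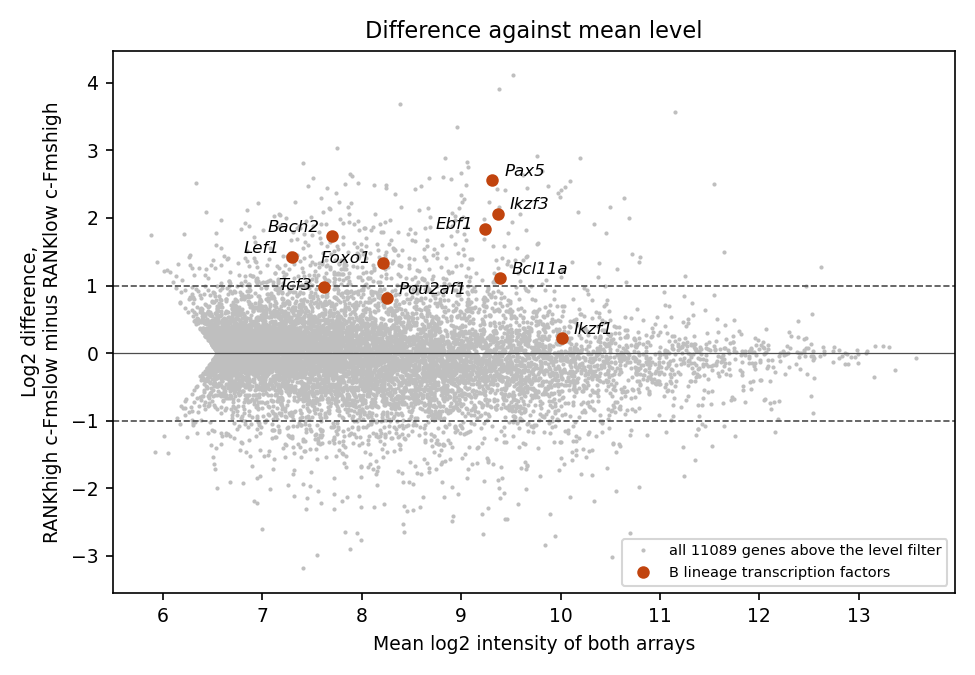
Log2 difference (RANKhigh c-Fmslow minus RANKlow c-Fmshigh) against mean log2 intensity for the 11089 genes above the level filter (grey) and the 10 B lineage factors (named). All 10 factors lie above 0, and 7 lie above the dashed line at a difference of 1, from Bcl11a (1.11) to Pax5 (2.56).

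Most relatives of the factors from the same families lay within 2-fold, as did most genes above the level filter. Of all genes above it, 4.34% were at least 2-fold higher in RANKhigh cells and 4.26% in c-Fmshigh cells. Of 23 relatives measured, 11 passed the level filter, 1 was at least 2-fold higher in RANKhigh cells, 0 were at least 2-fold lower, and the median difference over the 23 was 0.00. The 1 was Foxo3, a FOXO factor of stem cells and erythroid cells, at 311 against 145 (2.15-fold). Bach1, which like Bach2 represses antioxidant and heme-responsive genes and which myeloid cells use, lay in the other direction from Bach2, at 239 against 404 (log2 difference -0.76). The other E protein genes, Tcf12 (0.38) and Tcf4 (0.36), had smaller differences than Tcf3 (0.98). Among Ikaros family relatives, Ikzf2, which encodes Helios, stood at 128 against 106 (0.27), and Ikzf5 had a mean difference of -0.01 from probe sets that disagreed in sign (-0.22 and 0.21). Bcl11b, the T cell counterpart of Bcl11a, stood at 96.0 against 98.0 and Tcf7l2 at 258 against 264. Foxo4 (-0.14), Foxo6 (0.18) and Pax1 (0.03) lay near 0. None of the 3 measured Ebf relatives passed the filter, so they were not read as present or different.

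**Figure D3:**
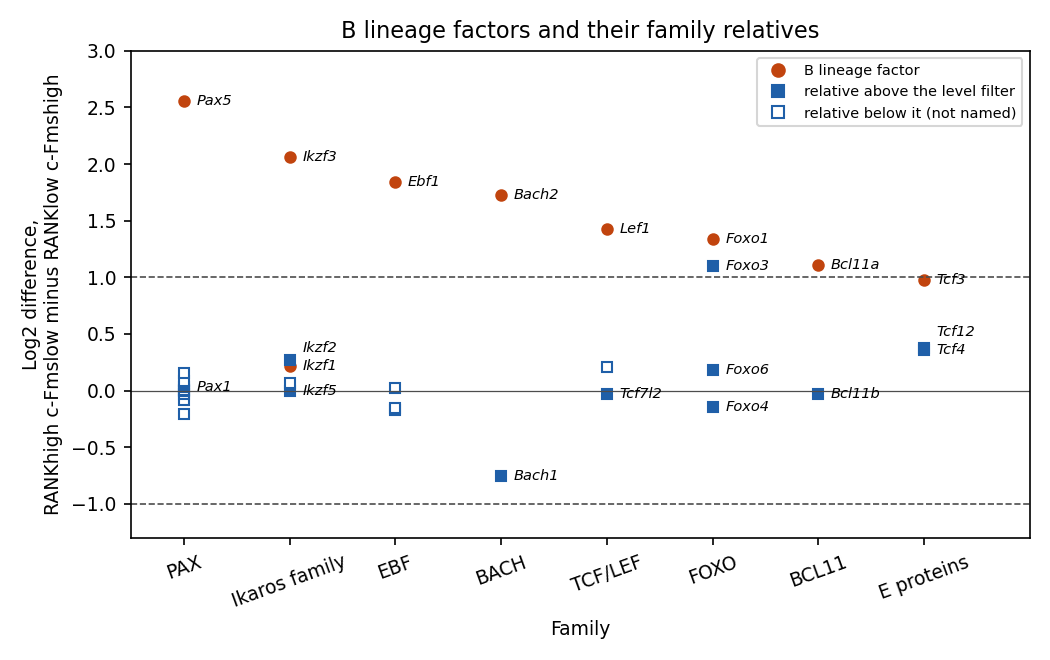
Log2 difference (RANKhigh c-Fmslow minus RANKlow c-Fmshigh) of the B lineage factors (circles) and of relatives in the same family (squares, open where below the level filter), 1 value per gene and no error bars. In the BACH column Bach2 lies at 1.73 and Bach1 at -0.76, and in the Ikaros column Ikzf3 (2.07) stands apart from the others, which lie between -0.01 and 0.27.

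Genes that the factors are known to activate were mostly higher in RANKhigh cells as well. For comparison, 4.34% of the 11089 genes that passed the level filter reached 2-fold in the RANKhigh direction, and 4.26% did in the c-Fmshigh direction. Of 5 targets of Ebf1 and E2A, 4 reached 2-fold, and the median was 1.47. Vpreb1, a surrogate light chain gene, stood at 2606 against 764 (3.41-fold), and Cd79a and Cd79b, which encode the signalling chains of the B cell receptor, were 2.90-fold and 2.77-fold higher. Igll1, the other surrogate light chain gene, was 2.66-fold higher. All 5 measured targets of Pax5 reached 2-fold, and the median was 2.24. Among them were Vpreb3 (1532 against 284, 5.40-fold), Fcer2a, which encodes CD23 (5.18-fold), the adaptor gene Blnk (4.74-fold) and Cd72, a coreceptor gene (3.52-fold). Of 5 measured targets of Foxo1, 4 passed the level filter and 3 were at least 2-fold higher: S1pr1, the lymphocyte egress receptor (3.20-fold), the recombinase gene Rag1 (3.12-fold) and the interleukin-7 receptor gene Il7r (2.89-fold). Klf2, the fourth, stood at 319 against 177 (1.80-fold).

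Genes known to be repressed by these factors showed no common direction. The background shares for a 2-fold difference were the same as for the activated targets, 4.34% higher and 4.26% lower in RANKhigh cells. Of 7 genes repressed by Pax5, 0 were at least 2-fold higher and 1 was at least 2-fold lower in RANKhigh cells, with a median of 0.03. The 1 was Csf1r (-2.33), whose product was used for the sort, so its direction is no independent evidence. Ramp1 (-0.93) and Flt3, a cytokine receptor gene of early progenitors (-0.90), were lower by less than 2-fold, and Cd28 (0.65) was higher. Of 4 genes repressed by Bach factors 3 passed the level filter. Gclm, a subunit of the enzyme for glutathione synthesis, stood at 852 against 193 (4.42-fold higher). Hmox1, heme oxygenase, was at 379 against 371. Prdm1, which encodes Blimp-1 of plasma cells, stood at 79.4 against 154. Since the value in RANKhigh cells did not exceed the receptor guide, Prdm1 was at least 1.84-fold lower there.

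Partners and inhibitors of the factors lay within 2-fold, as did most genes above the level filter. Of all genes above it, 4.34% were at least 2-fold higher in RANKhigh cells and 4.26% in c-Fmshigh cells. Of 13 measured binding partners and corepressors, 0 differed by 2-fold, and their median was -0.02. The small Maf genes Mafk (0.75) and Maff (0.74), whose products pair with Bach2, and Pou2f2, which encodes Oct-2, the partner of Pou2af1 (0.69), were higher in RANKhigh cells by less than 2-fold. Ctnnb1, which encodes the Lef1 partner β-catenin, was lower (-0.59). Among the Id genes, whose products inhibit E proteins, Id3 stood at 166 against 89.3 (0.90), Id2 at 335 against 361 (-0.11) and Id1 at 114 against 122 (-0.09). Of 16 other factors of B and lymphoid development, 3 were at least 2-fold higher in RANKhigh cells and 0 lower, with a median of 0.27. They were Spib, an ETS factor of B cells and plasmacytoid dendritic cells (471 against 126, 3.75-fold), Ets1 (429 against 162, 2.65-fold) and Irf4 (374 against 172, 2.18-fold). Spi1, which encodes PU.1, a factor of B cells and, at higher level, of myeloid cells, stood at 196 against 390 (-0.99), just inside 2-fold.

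Markers of B cells were higher in RANKhigh cells along with the factors. Of 12 measured B cell markers, 11 reached 2-fold higher in RANKhigh cells, the median was 1.82, and their summed intensity was 11246 against 3381. For this and the next lists, the shares among all genes above the level filter were 4.34% higher and 4.26% lower by at least 2-fold. Ms4a1, which encodes CD20, was 4.47-fold higher, Fcmr 4.08-fold and Fcrla 3.83-fold. No B cell marker had a larger difference than Pax5, 2 had a larger one than Ikzf3, 5 than Ebf1, and 11 a larger one than Tcf3 or Pou2af1. Of 10 pro-B and pre-B cell markers, 9 passed the level filter and 7 were at least 2-fold higher (median 1.59, summed intensity 13903 against 6681), Dntt, which encodes terminal transferase, by 3.89-fold. These lists share genes with those of the activated targets and are not separate evidence. All 10 factors and all 12 B cell markers exceeded the receptor guide in c-Fmshigh cells too, with Cr2 (85.9) closest to it. That guide (81.8) lay below the median of the c-Fmshigh array (92.6), so most values on the array exceed it. The count alone is therefore no sign of B lineage expression in c-Fmshigh cells. Plasma cell markers were divided (3 of 8 at least 2-fold higher, 0 at least 2-fold lower, median 0.19). Jchain was 2.46-fold, Mzb1 2.29-fold and Irf4 2.18-fold higher. Below 0 lay 2 of the 8: Prdm1 (at least 1.84-fold lower) and Xbp1 (1.62-fold lower), the latter named after its value was seen.

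In the lists for T cells, plasmacytoid dendritic cells and early progenitors, which use some of these factors, most genes lay within 2-fold. So did most genes above the level filter, of which 4.34% were at least 2-fold higher in RANKhigh cells and 4.26% in c-Fmshigh cells. The shares at least 2-fold higher in RANKhigh cells were larger than that in the T cell and plasmacytoid dendritic cell lists. Among the 12 genes of the T cell list, 3 reached 2-fold (median 0.51, summed intensity 2197 against 1040), led by the CD3 chain gene Cd3d at 596 against 96.7 (6.16-fold). The median over the 9 that passed the level filter was 0.67. That filter takes the higher array, so some genes, such as Cd8a (110 against 66.5), passed through their RANKhigh value alone. The same holds for Il2rb (117 against 69.05) in the NK cell list below. Medians over the genes that passed are therefore not independent of the direction. The markers Cd4, Cd8b1 and Trat1, named after their values were seen, were not above the receptor genes on either array. Of 9 plasmacytoid dendritic cell markers, 3 were at least 2-fold higher and 1 lower (median 0.59, summed intensity 4507 against 3787), with Ly6d 3.64-fold and Cox6a2 2.67-fold higher and Pld4 2.30-fold lower. Stem and early progenitor markers had a median of 0.21 (1138.0 against 1262), with Cd34 2.18-fold lower and Slamf1 higher by at least 2.16-fold. Of 8 NK cell markers, 5 passed the level filter, and 3 of these were at least 2-fold higher in RANKhigh cells. The median was 1.36 over the 5 and 0.84 over the 8 (2008 against 895). The remaining 3 were not above the receptor genes on either array. Neutrophil markers (8 of 10 at least 2-fold higher, median 2.48, 43642 against 13950), eosinophil markers (5 of 6, 2.72, 12178 against 1161) and erythroid markers (8 of 8, 2.36, 10981 against 2354) were higher, and 7 of 8 monocyte markers were at least 2-fold lower (-2.08, 4871 against 21322). Their part in the differences of the 10 factors was not tested.

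**Figure D4:**
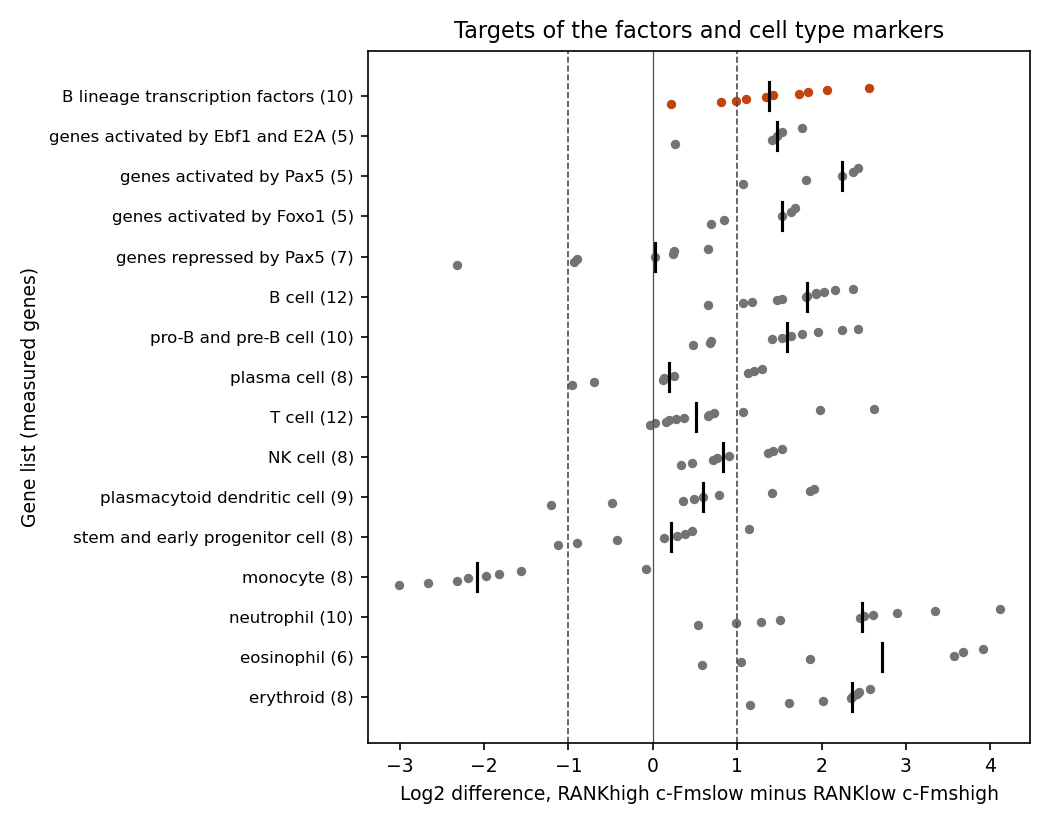
Log2 difference (RANKhigh c-Fmslow minus RANKlow c-Fmshigh) of each measured gene in the lists of B lineage factors (top row), their targets and cell type markers, with the list median as a black bar and the number of genes in brackets. The median of the factors (1.38) lies near those of the Ebf1 and E2A targets (1.47) and of the pro-B and pre-B cell markers (1.59), while the genes repressed by Pax5 spread around 0.03.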

How the data were processed

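The authors deposited 1 linear intensity per probe set and array. GCOS 1.4 and RMA are named in the submitters' processing notes, without their roles or order. Background correction and normalization between arrays are therefore theirs, and scanner files were not used here. The intensities were put on the log2 scale with no pseudocount and no further scaling. The platform annotation of 2016 gave 21780 of 28815 probe sets exactly 1 gene, 1605 several and listed 5430 not at all. Entrez identifiers of 21689 of the 21780 stood in the reference gene table (GRCm38.p6), and 0 symbols changed. Probe sets were averaged per gene on the log2 scale, giving 19935 genes. Precision is limited by the number of arrays. With 1 array per group no p-value or standard error was computed, and genes were counted by size at 2-fold (1 on the log2 scale). The members and lists were chosen with earlier results of these data known. Named are all members, relatives above the level filter, the sort markers and up to 4 genes per other list with the largest absolute difference among those above the filter. Other genes named are marked. The size rule was tested on simulated data. Their noise was set from the spread of these same differences, so replicate error was not examined. Python 3.11.15, numpy 2.4.6 and pandas 2.3.3 were used. Alternatives changed the scaling, the pseudocount, the choice of probe sets, the level filter and the fold.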

Additional observations from a re-analysis of the deposited data

How the results depend on the processing

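Of 75 values recomputed under 9 alternatives, 72 stayed within the limits set for a change (1.5 times for a count, 0.19 on the log2 scale for a difference), 3 moved and 0 changed sign. The number of factors at least 2-fold higher in RANKhigh cells stayed at 7 under every change of scaling and pseudocount. It also stayed at 7 with probe sets of several genes added, where no member's value changed. The brightest probe set and the other level filters could not change it, since each member has 1 probe set and passed the filter. Such fixed outcomes are among the 72. The number was 9 at a threshold of 1.5-fold (10.5% of genes above the filter) and 4 at 3-fold (1.53%): a count falls with a stricter threshold by construction. With log2 of the value plus 32, which shrinks differences of dim genes, Bach2 had 1.49 and Lef1 1.18. The median of the factors ranged from 1.19 to 1.39, and Tcf3 stayed below 2-fold, from 0.84 to 0.98. None was 2-fold higher in c-Fmshigh cells under any alternative. No paired analysis was possible because each group holds 1 array, and for the same reason no replicate could be left out.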
